A study of Homo sapiens with 2 samples.

Results

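The 7 genes described here encode neural adhesion proteins and the scaffolds found with them: the IgLON genes LSAMP, NTM, OPCML and NEGR1, the synapse organiser IL1RAPL1, and the membrane scaffolds MAGI2 and SNTG1. They are 7 of the 38606 genes in the deposited matrix, and were matched by symbol. They were chosen by their CPM and share of cells in the authors' cluster 1 of the untreated library, where several stood among the leading genes, so their height in that cluster is a description and supports nothing. Both libraries hold human mesenchymal stem cells of adipose origin from a commercial source, which were grown close to confluence and starved overnight. The untreated group received nothing further, and the TGFB1 group received transforming growth factor beta 1 at 10 ng/mL for 24 h. The labels do not say how many cultures stand behind a library. Each group is 1 library, so no test of the treatment is possible, and every interval below covers counting error within these libraries only.

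IgLON proteins are small immunoglobulin-domain molecules held in the outer membrane by a lipid anchor. They bind one another in like and unlike pairs between and within cells, and are best known for neurite outgrowth and synapse number in the brain. IL1RAPL1 spans the membrane at the receiving side of synapses and pairs across the cleft with the receptor phosphatase PTPRD. MAGI2 is a PDZ-domain scaffold that gathers receptors and adhesion molecules under the membrane, and SNTG1 is a gamma syntrophin, an adaptor of the dystrophin complex that is best known from neurons. Mesenchymal stem cells of fat are not neurons, and the genes are described here for what the libraries hold of their RNA. TGFB1 acts through receptor kinases that activate SMAD transcription factors, which drive matrix and contractile genes in stromal cells.

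Promoter sequences are shown for LSAMP, IL1RAPL1 and MAGI2, which were lower in the TGFB1 library, and for NTM, which was higher, so that the starts of genes that moved together and apart can be compared. RefSeq (GRCh38.p14) gave an entry for 5 of the 7 genes, from 250 bases before to 50 after the start, printed 5′ to 3′ on the gene's strand. Capitals mark CAGAC, the short SMAD-binding word, on either strand (GTCTG where it reads on the other strand). The stretches are chr3:116445438-116445737 (minus strand), chrX:28587196-28587495 (plus), chr7:79453618-79453917 (minus) and, for NTM, the 4th of 5 listed starts at chr11:131911086-131911385 (plus).
LSAMP: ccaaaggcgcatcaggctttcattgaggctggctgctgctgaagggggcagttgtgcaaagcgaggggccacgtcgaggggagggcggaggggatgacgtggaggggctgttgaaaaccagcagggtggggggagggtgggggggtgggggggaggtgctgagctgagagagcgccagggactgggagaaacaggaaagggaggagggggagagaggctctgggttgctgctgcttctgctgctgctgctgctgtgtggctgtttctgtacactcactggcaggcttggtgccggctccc
IL1RAPL1: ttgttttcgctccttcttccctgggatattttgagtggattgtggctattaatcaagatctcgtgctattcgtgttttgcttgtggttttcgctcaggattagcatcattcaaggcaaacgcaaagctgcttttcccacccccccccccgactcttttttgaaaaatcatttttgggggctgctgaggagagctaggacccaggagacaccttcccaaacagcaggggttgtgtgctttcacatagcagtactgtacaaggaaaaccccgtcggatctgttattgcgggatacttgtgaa
MAGI2: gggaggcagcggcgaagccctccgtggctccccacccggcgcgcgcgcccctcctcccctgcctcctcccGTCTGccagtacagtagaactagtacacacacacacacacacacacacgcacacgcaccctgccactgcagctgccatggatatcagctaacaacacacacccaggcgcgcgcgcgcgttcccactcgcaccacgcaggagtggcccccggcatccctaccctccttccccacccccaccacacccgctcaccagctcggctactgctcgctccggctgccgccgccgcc
NTM: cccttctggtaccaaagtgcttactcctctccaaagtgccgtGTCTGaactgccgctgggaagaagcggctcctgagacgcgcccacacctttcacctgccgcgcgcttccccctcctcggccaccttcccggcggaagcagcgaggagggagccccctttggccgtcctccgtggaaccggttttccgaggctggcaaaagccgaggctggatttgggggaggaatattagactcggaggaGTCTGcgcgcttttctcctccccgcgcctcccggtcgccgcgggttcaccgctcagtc
The word had 0 matches in the LSAMP and IL1RAPL1 stretches, 1 in MAGI2 and 2 in this NTM stretch. Of the 35116 RefSeq promoters of the same length, 45.3% held it, so either outcome is common. Over the other NTM starts the counts were 0, 1, 1 and 0, so the stretch printed is the NTM start with the most matches. Both OPCML starts had 0. GC content was 64.7% in LSAMP, 47.3% in IL1RAPL1, 69.3% in MAGI2 and 64.7% in this NTM stretch, beside a median of 58.7% over all promoters. The RefSeq start of LSAMP lies inside the longer GENCODE span of the gene, and the UMI counts do not tell which start was used.

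Depth is counted in UMIs, each 1 tagged RNA molecule. The untreated library comprised 8101 cells with 169011524 UMIs in all and a median of 19249 per cell, and the TGFB1 library 12555 cells with 208991941 UMIs and a median of 15134. The authors sorted the cells into clusters 0 to 10. Clusters 1, 2 and 6 were nearly all untreated cells, clusters 0, 3, 4, 5 and 8 nearly all TGFB1 cells, and clusters 7, 9 and 10 held cells of both. Because cluster and library nearly coincide, a cluster difference and a library difference cannot be told apart for most cells. In total 18 cell barcodes occurred in both libraries. Stromal markers (such as the collagens COL1A1 and COL1A2, and VIM) were present at 5 CPM or more for 11 of 11 genes, where CPM is UMIs of the gene per 1000000 UMIs of the cells compared. Summed, they made up 28422 CPM without and 27817 CPM with TGFB1, with 5 of the 11 lower by 1.5-fold. No endothelial marker (0 of 6) and no adipocyte marker (0 of 6) reached 5 CPM in either library.

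All 7 genes are among the longest in the genome. Length was not itself used to choose them, but most long genes were higher in cluster 1, as given below, so the 2 are not independent. In GENCODE 29 (GRCh38), LSAMP lies on chromosome 3 from 115802363 to 117139389 on the minus strand, a span of 1337 kb. NTM (chromosome 11, 131370478 to 132336822, plus strand, 966 kb) and OPCML (chromosome 11, 132414977 to 133532519, minus strand, 1118 kb) face each other with their ends 78.2 kb apart. NEGR1 runs from 71395940 to 72282734 on the minus strand of chromosome 1 (887 kb), and IL1RAPL1 from 28587399 to 29956723 on the plus strand of chromosome X (1369 kb). MAGI2 occupies 78017057 to 79453574 on the minus strand of chromosome 7 (1437 kb), and SNTG1 occupies 49909789 to 50796691 on the plus strand of chromosome 8 (887 kb). Their spans lay between percentiles 99.48 and 99.89 of the 19969 protein-coding genes, whose median span was 27.1 kb. Annotated exons covered 0.268% of the span in IL1RAPL1 and 2.19% in MAGI2, the lowest and highest shares among the 7, so nearly all of each gene is intron. The counts do not separate intronic from exonic reads.

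The IgLON genes went in different directions between the libraries. LSAMP (limbic system-associated membrane protein) stood at 494 CPM in the untreated library, from 83537 UMIs, and at 232 CPM in the TGFB1 library, from 48435 UMIs. It was 2.13-fold higher without TGFB1 (95% exact interval 2.11 to 2.16). NTM (neurotrimin) stood at 39.3 CPM untreated and 89.5 CPM with TGFB1, from 6649 and 18712 UMIs. The TGFB1 library was the higher, by 2.28-fold (2.21 to 2.34). NEGR1 (neuronal growth regulator 1) also stood higher with TGFB1, at 189 CPM against 109 CPM, a ratio of 1.73 (1.70 to 1.76). OPCML (opioid-binding cell adhesion molecule) was near the limit of detection at 0.302 CPM untreated and 0.895 CPM with TGFB1, from 51 and 187 UMIs. Its ratio was 2.97 (2.17 to 4.13), and it stayed under the 5 CPM used below as the minimum for a measured gene.

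IL1RAPL1 and the scaffolds were lower in the TGFB1 library. IL1RAPL1 stood at 197 CPM untreated and 47.9 CPM with TGFB1, from 33215 and 10015 UMIs, and was 4.10-fold higher without TGFB1 (4.01 to 4.19). MAGI2 stood at 467 CPM untreated and 170 CPM with TGFB1, 2.74-fold higher without it (2.70 to 2.77). SNTG1, the gamma syntrophin, showed the widest gap of the 7. It stood at 24.4 CPM untreated, from 4128 UMIs, and at 0.804 CPM with TGFB1, from 168 UMIs, 30.4-fold higher without TGFB1 (26.0 to 35.7). CPM from UMI counts is not scaled to gene length, so levels are compared between libraries and cells for a gene, and not between genes.

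Counting the 6 genes that reached 5 CPM in at least 1 library, 4 were lower with TGFB1 by 1.5-fold or more and 2 were higher. Among all 10928 genes at that minimum, 14.2% were lower and 8.45% higher by the same fold. At 2-fold, LSAMP, IL1RAPL1, MAGI2 and SNTG1 were lower and NTM higher, where 6.05% and 3.61% of all genes were. The median log2 ratio of TGFB1 to untreated was -1.27 over the 6 genes and -0.10 over all genes. OPCML passed no minimum and is not part of these counts. Cluster 1, on which the genes were chosen, made up 45.5% of untreated and 0.446% of TGFB1 cells, so ratios below 1 between the libraries are not independent of that choice.

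The share of cells with a UMI moved the same way as the level for each of the 7 genes. Cells were thinned at random to 7500 UMIs each so that depth did not set the share, which kept 7646 untreated and 9330 TGFB1 cells and left out 455 and 3225 shallower ones. LSAMP had a share of 78.1% without and 61.0% with TGFB1 (86.9% and 70.9% before thinning). For MAGI2 it was 77.5% and 57.3% (86.7% and 69.7% before). IL1RAPL1 went from 51.4% of untreated cells to 20.9% of TGFB1 cells (65.3% and 29.2% before). These 3 genes were therefore seen in fewer cells of the TGFB1 library as well as at a lower level over all cells. The shares of NTM were 21.1% without and 40.1% with TGFB1 (40.3% and 55.0% before), and those of NEGR1 43.0% and 63.4% (65.02% and 76.17% before).

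SNTG1 RNA was held by few cells even in the untreated library, where 1145 of 8101 cells held all 4128 UMIs. A UMI was seen in 9.23% of thinned untreated cells and 0.557% of thinned TGFB1 cells (14.1% and 0.828% before). For OPCML the thinned shares were 0.157% and 0.547% (0.481% and 0.789% before). As a background, PTPRC, the pan-leukocyte gene that stromal cells should lack, gave 0.170% of thinned untreated and 0.171% of thinned TGFB1 cells (0.395% and 0.558% before). This background is 1 of 6 immune markers, and its level depends on the gene. CD3E and MS4A1 had 0 UMIs, and CD68 stood at 24.1 CPM untreated and 16.3 CPM with TGFB1. Over the whole library, the untreated OPCML share was no higher than that of PTPRC and is not read as expression there. However, 22 of the 51 untreated OPCML UMIs lay in the 33 cells of cluster 10, as given below. The SNTG1 share in the TGFB1 library was 0.557% (0.417 to 0.730, exact binomial) beside 0.171% (0.0981 to 0.278) for PTPRC.

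A thinned untreated cell held UMIs of a median of 3 of the 7 genes, and a thinned TGFB1 cell of 2. Cells with 3 or more of them made up 61.8% of the untreated and 49.2% of the TGFB1 library. In untreated cluster 1 the median was 4 and 86.3% of cells held 3 or more, while in untreated cluster 2 the median was 2 and 39.0% did. The lowest share among groups of 50 cells or more was 14.996%, in TGFB1 cluster 4, whose cells also had a low median MALAT1 share of 0.586%.

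**Figure D1:**
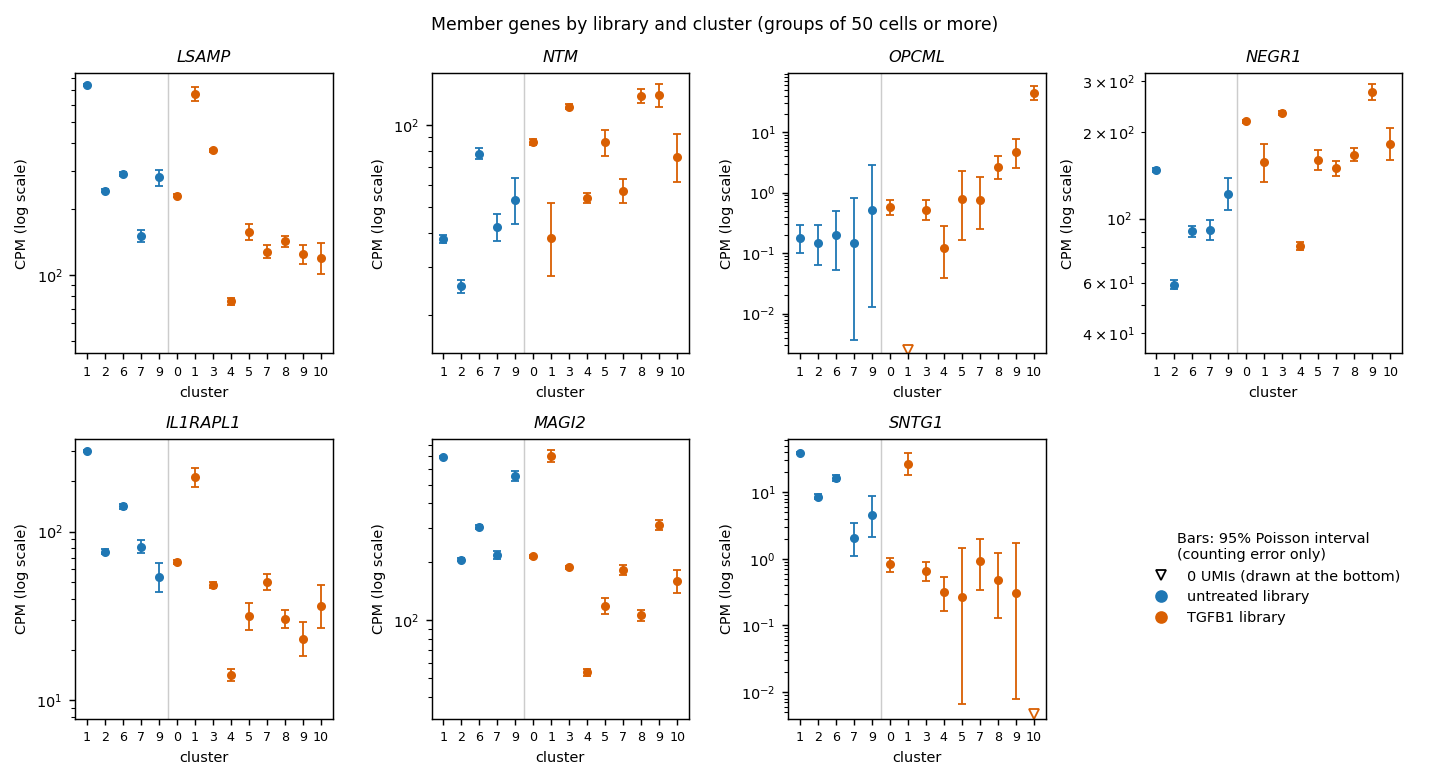
CPM (log axis, a scale of its own for each gene) of the 7 genes in each group of library and cluster with 50 cells or more, with exact 95% Poisson intervals that cover counting error only. LSAMP, IL1RAPL1, MAGI2 and SNTG1 are high in cluster 1 of both libraries, NTM and NEGR1 are highest in TGFB1 groups, and OPCML stands out in TGFB1 cluster 10 at 44.1 CPM.

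Across the 14 groups of library and cluster with 50 cells or more, LSAMP was highest in cluster 1 of either library. It stood at 741 CPM in untreated cluster 1 (735 to 747) and at 672 CPM in the 56 TGFB1 cells that the authors placed in the same cluster. The next group was TGFB1 cluster 3 at 372 CPM, followed by untreated clusters 6, 9 and 2 at 290, 279 and 243 CPM. TGFB1 cluster 4 was the lowest at 75.6 CPM. Inside the TGFB1 library LSAMP therefore ran from 75.6 to 672 CPM, with the upper end resting on those 56 cells. The other TGFB1 groups ran from 75.6 to 372 CPM.

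IL1RAPL1 followed a similar order, at 301 CPM in untreated cluster 1, 209 CPM in TGFB1 cluster 1 and 141 CPM in untreated cluster 6, with no overlap of neighbouring intervals. All other groups lay from 14.1 CPM in TGFB1 cluster 4 to 81.7 CPM in untreated cluster 7. MAGI2 stood at 705 CPM in TGFB1 cluster 1 and 695 CPM in untreated cluster 1, whose intervals overlapped, and at 554 CPM in untreated cluster 9. Its lowest group was again TGFB1 cluster 4, at 53.7 CPM. SNTG1 stood at 39.1 CPM in untreated cluster 1 and 26.9 CPM in TGFB1 cluster 1, with overlapping intervals, then at 16.2 CPM in untreated cluster 6 and 8.56 CPM in untreated cluster 2. In the 8 other TGFB1 groups SNTG1 lay at or under 0.919 CPM, and TGFB1 cluster 10 had 0 UMIs. The 56 TGFB1 cells of cluster 1, which are 0.446% of that library, held 30 of its 168 SNTG1 UMIs (17.9%).

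NTM and NEGR1 had another order. NTM was highest in TGFB1 clusters 9 and 8, at 129 and 127 CPM with overlapping intervals, and in TGFB1 cluster 3 at 117 CPM. It was lowest in untreated cluster 2 at 25.5 CPM, and untreated cluster 1 stood at 38.1 CPM. The untreated group with the most NTM was cluster 6 at 78.4 CPM, whose interval overlapped that of TGFB1 cluster 5 at 86.2 CPM. NEGR1 was highest in TGFB1 clusters 9, 3 and 0 at 275, 232 and 217 CPM, each apart from the next. Untreated cluster 1 stood at 147 CPM and untreated cluster 2, the lowest, at 58.9 CPM.

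OPCML stood out in a small group of cells. In cluster 10 of the TGFB1 library it reached 44.1 CPM, and the next group, TGFB1 cluster 9, stood at 4.65 CPM. The 113 cells of TGFB1 cluster 10 are 0.900% of that library and held 58 of its 187 OPCML UMIs (31.02%), spread over 21 cells (18.6%, 11.9 to 27.0) with at most 11 UMIs in a cell. The untreated library had 33 cells in cluster 10, 0.407% of its cells, and these held 22 of 51 OPCML UMIs (43.1%) in 10 cells (30.3%, 15.6 to 48.7). Cluster 10 also held the mural (vessel wall muscle) markers, with 7 of 7 at 5 CPM or more in its TGFB1 cells. Among them MYH11, the smooth muscle myosin, stood at 144 CPM there and 0.838 CPM in all other TGFB1 cells, and NOTCH3 at 31.2 and 2.65 CPM. The part of these cells in the library ratio was measured by leaving cluster 10 out, which gave 0.172 CPM untreated and 0.621 CPM with TGFB1, from 29 and 129 UMIs, a ratio of 3.60 (2.39 to 5.59).

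The contrast by which the genes were chosen, untreated cluster 1 (3687 cells) against all other untreated cells (4414), is given as a description. SNTG1 was 4.02-fold, IL1RAPL1 3.27-fold, LSAMP 3.01-fold, MAGI2 2.93-fold and NEGR1 2.08-fold higher in cluster 1, and the NTM ratio was 0.94. Thus 5 of 6 genes at 5 CPM or more were higher by 1.5-fold and 0 lower, where 19.3% of 11096 genes were higher and 3.64% lower. Against untreated cluster 2 alone, 5 of 6 were again higher and 0 lower, where 32.8% of 10922 genes were higher and 0.705% lower. Cluster 1 held 80.2% of the library's SNTG1 UMIs, 76.7% of those of IL1RAPL1, 75.2% of LSAMP, 74.7% of MAGI2, 67.6% of NEGR1 and 48.6% of NTM. Its cells were also deeper, with a median of 21470 UMIs beside 16327 in cluster 2, and had a larger median share of MALAT1, at 2.33% beside 0.760%. Set relative to the other genes spanning 500 kb or more, the ratios became 2.10 for SNTG1, 1.71 for IL1RAPL1, 1.57 for LSAMP, 1.53 for MAGI2, 1.09 for NEGR1 and 0.491 for NTM, so that NEGR1 no longer reached 1.5-fold and NTM was lower by more than 1.5-fold. Relative to MALAT1 the NEGR1 ratio was 1.16. When the untreated cells were clustered again without the 7 genes, the new cluster with the largest share of cluster 1 cells (90.4% of its 1649 cells) had SNTG1 at 55.0 CPM against 17.0 CPM in the rest. MAGI2 stood there at 761 against 395 CPM, IL1RAPL1 at 320 against 167 CPM and LSAMP at 677 against 450 CPM, while NEGR1 at 124 against 106 CPM and NTM at 36.8 against 40.0 CPM differed by less than 1.5-fold. The new cluster held 40.4% of the cluster 1 cells. Among the other new clusters, 2 were also mostly cluster 1 cells (59.1% and 53.4%), with LSAMP at 496 and 744 CPM and SNTG1 at 7.79 and 44.0 CPM. NEGR1 stood at 147 and 104 CPM in these 2.

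The same cluster can be compared between libraries where both had 50 cells or more, though these cells are also part of the comparison of whole libraries. Cells were placed in a cluster by their expression, so likeness between libraries within a cluster is partly set by that placing. In cluster 1, none of 6 genes differed by 1.5-fold in either direction (6.42% of 11310 genes were higher and 6.87% lower). LSAMP stood at 672 against 741 CPM and IL1RAPL1 at 209 against 301 CPM, TGFB1 library given before the untreated. In cluster 7, NEGR1 stood at 149 against 91.4 CPM, a ratio of 1.63 (1.48 to 1.81), and IL1RAPL1 at 50.2 against 81.7 CPM, 1.63-fold lower (1.42 to 1.87). These were 1 higher and 1 lower of 5 measured genes, where 5.03% of all genes were higher and 4.95% lower. In cluster 9, NTM at 129 against 52.8 CPM (2.43, 1.96 to 3.05) and NEGR1 at 275 against 122 CPM (2.26, 1.96 to 2.62) were higher. LSAMP at 125 against 279 CPM, IL1RAPL1 at 23.2 against 53.8 CPM and MAGI2 at 310 against 554 CPM were lower. Cluster 9 thus had 2 higher and 3 lower of 5 measured genes (9.69% and 17.8% of all genes). The share of its thinned cells with an LSAMP UMI hardly differed, at 29.41% untreated and 29.01% with TGFB1. Before thinning, the 550 untreated LSAMP UMIs lay in 36 of 108 cells and the 402 TGFB1 UMIs in 74 of 183. Thinned shares were lower with TGFB1 for MAGI2 (87.1% to 68.7%) and IL1RAPL1 (16.5% to 9.16%, with overlapping intervals).

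Leaving out clusters 1 and 2, which hold most untreated cells, changed the picture for LSAMP. It then stood at 252 CPM in 1320 untreated cells and 230 CPM in 12453 TGFB1 cells, 1.10-fold apart (1.07 to 1.13). Of these untreated cells, 842 were from cluster 6, whose cycling markers summed to 1395 CPM, beside 30.2 CPM in untreated cluster 1. Of the TGFB1 cells, 348 were in cluster 8, where those markers summed to 1055 CPM. The 2 sides thus differ in cycling cells, whose part in the ratios of this comparison was not tested. IL1RAPL1 remained lower with TGFB1 by 2.54-fold (2.44 to 2.64), MAGI2 by 1.76-fold (1.72 to 1.80) and SNTG1 by 18.3-fold (14.9 to 22.5). NEGR1 was higher by 2.06-fold (1.98 to 2.14), and NTM by 1.34-fold (1.28 to 1.41), under the 1.5-fold used for a call. Of all genes, 6.43% were higher and 19.2% lower in this comparison. With all TGFB1 cells set against untreated cluster 2 alone, the ratio was 0.95 for LSAMP, 0.83 for MAGI2, 0.63 for IL1RAPL1 and 0.094 for SNTG1. It was 3.51 for NTM and 3.21 for NEGR1. LSAMP and MAGI2 were thus lower by less than 1.5-fold against that cluster.

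Length went with the cluster 1 contrast over the whole table. Of 174 genes spanning 500 kb or more, 85.6% were higher in untreated cluster 1 by 1.5-fold, with a median log2 ratio of 0.99, while 2.14% of genes under 10 kb were. The members' log2 ratios in that contrast ran from -0.09 for NTM to 2.01 for SNTG1. Against TGFB1 the long genes did not move as a block. Of 173 genes spanning 500 kb or more, other than the members, 20.2% were higher and 23.1% lower with TGFB1, with a median log2 ratio of -0.11. Among the 179 long genes with the members included, ordered from the lowest ratio, SNTG1 was number 2, IL1RAPL1 10, MAGI2 18, LSAMP 25, NEGR1 152 and NTM 168. The members were chosen on cluster 1 and the other long genes were not, so the low ranks of SNTG1, IL1RAPL1, MAGI2 and LSAMP partly restate that choice.

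**Figure D2:**
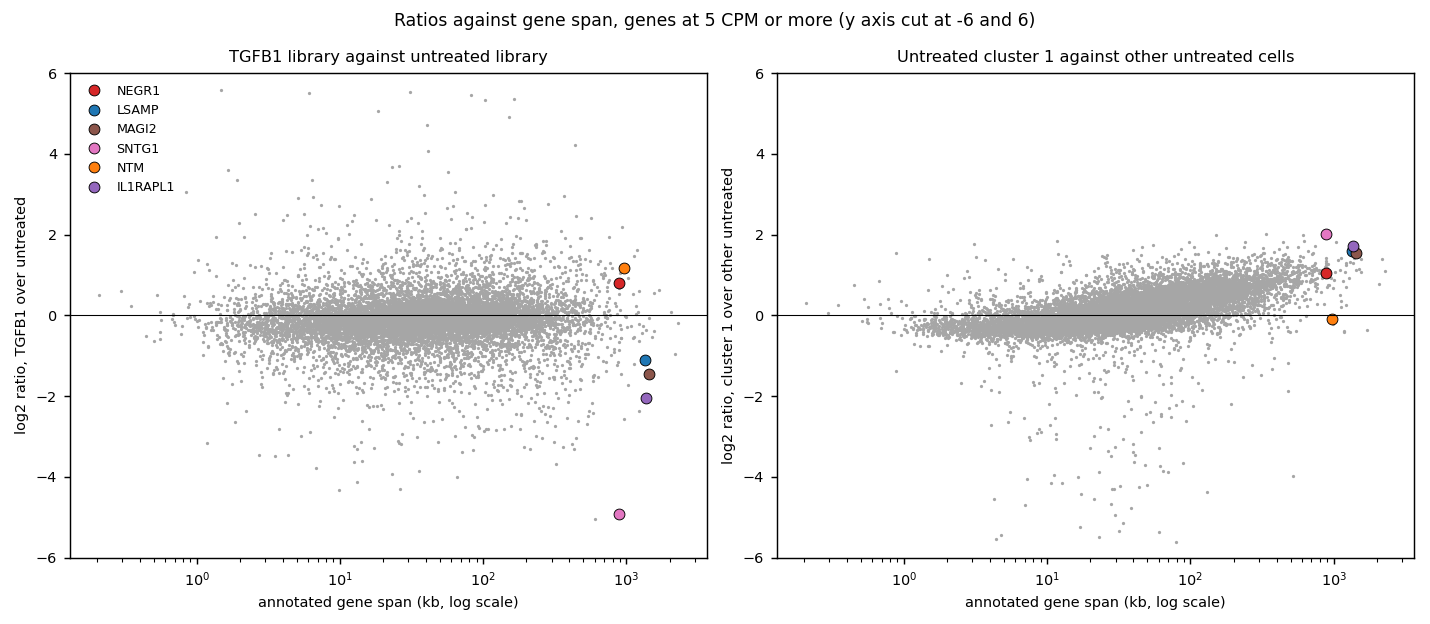
Log2 ratio (vertical axis, with a few genes beyond its ends not drawn) against annotated gene span in kb (log axis) for genes at 5 CPM or more, each grey point a gene and coloured points the 6 measured members. In the right panel, untreated cluster 1 over other untreated cells, ratios climb with span to a median of 0.99 at 500 kb or more; in the left panel, TGFB1 over untreated, the median of such genes is -0.11 and the members lie on both sides.

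MALAT1 is a long non-coding RNA retained in the nucleus, and its share of a cell's UMIs is used here as a gauge of nuclear RNA. Untreated cells were put in 5 equal bins by that share. From the lowest to the highest bin, MAGI2 went from 88.1 to 702 CPM, a factor of 7.97, IL1RAPL1 from 32.2 to 270 CPM (8.38) and LSAMP from 112 to 606 CPM (5.43). SNTG1 went from 7.43 to 33.9 CPM (4.56) and NEGR1 from 36.7 to 139 CPM (3.79). NTM hardly moved, from 30.5 to 38.5 CPM (1.26). The bins also differed in cluster, with 0.494% of cells from cluster 1 in the lowest bin and 73.3% in the highest, and in the share of UMIs from other genes spanning 500 kb or more, which was 0.613% and 2.48%. In the TGFB1 library these levels also ran upward, from 53.8 to 261 CPM for MAGI2 (4.86), from 18.3 to 69.3 CPM for IL1RAPL1 (3.78), from 79.5 to 285 CPM for LSAMP (3.58), from 88.6 to 260 CPM for NEGR1 (2.94) and from 70.6 to 91.7 CPM for NTM (1.30).

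Inside cluster 1 the factors were smaller. From its lowest to its highest MALAT1 bin MAGI2 climbed in each bin, from 565 to 815 CPM (1.44). SNTG1 stood at 41.0 and 49.3 CPM at the ends (1.20), NEGR1 at 130 and 148 CPM (1.14) and IL1RAPL1 at 289 and 324 CPM (1.12). LSAMP stood at 697 and 696 CPM at the ends and was highest in the second bin, at 814 CPM, and NTM stood at 41.1 and 38.6 CPM. Inside cluster 2 the gradient was steep, with MAGI2 at 32.5 and 341 CPM, LSAMP at 64.4 and 371 CPM and IL1RAPL1 at 14.4 and 127 CPM. The median MALAT1 share ran from 0.0347% to 2.25% over the cluster 2 bins and from 1.37% to 3.53% over the cluster 1 bins.

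**Figure D3:**
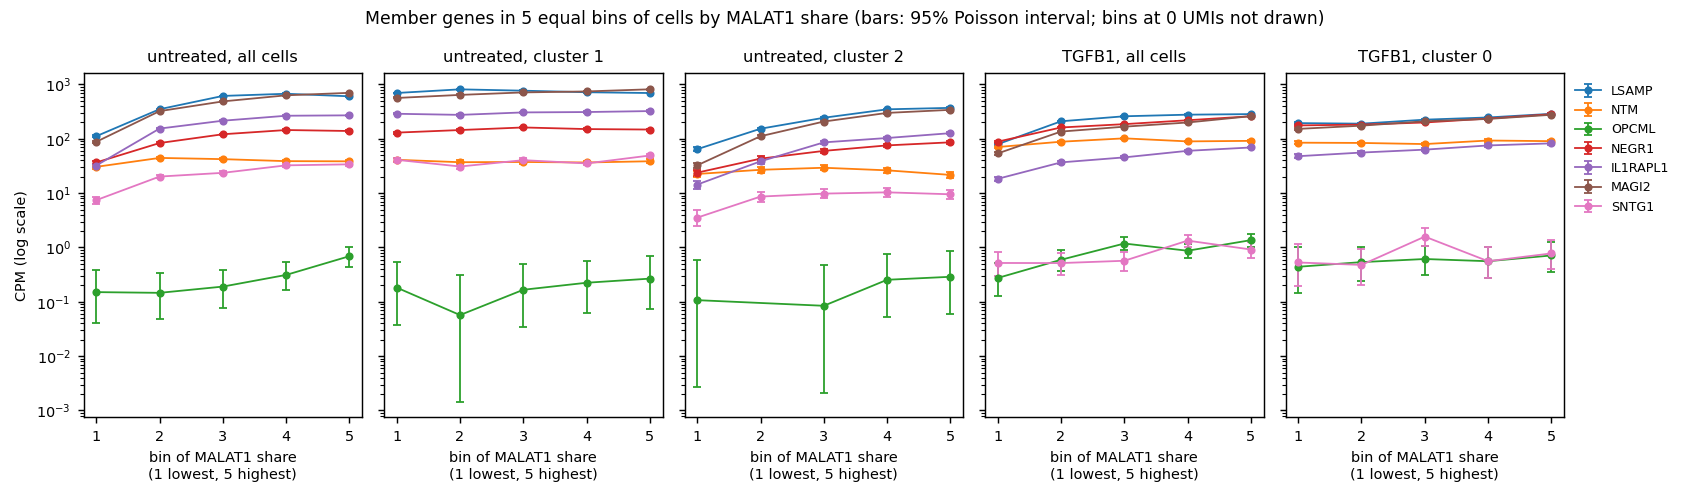
CPM (log axis) of the 7 genes in 5 equal bins of cells ordered by MALAT1 share, for all cells and the largest clusters of each library, with exact 95% Poisson intervals. Lines climb over all untreated cells (MAGI2 from 88.1 to 702 CPM) and in cluster 2, and change less in cluster 1, where MAGI2 goes from 565 to 815 CPM and LSAMP stands at 697 and 696 CPM at the ends.

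Across single thinned cells, Spearman's rho with MALAT1 in the untreated library was 0.54 for MAGI2, 0.42 for LSAMP, 0.32 for IL1RAPL1, 0.26 for NEGR1, 0.08 for SNTG1, 0.02 for OPCML and 0.01 for NTM (7646 cells). The cells share a library and a fixed depth, and counts of a few UMIs keep rho low. Within cluster 1 (3574 cells) the values were 0.16 for MAGI2 and between -0.01 and 0.03 for the others. With NEAT1, another nuclear non-coding RNA, the cluster 1 values were 0.21 for MAGI2, 0.17 for LSAMP, 0.12 for IL1RAPL1 and SNTG1, and -0.03 for NEGR1. With MALAT1 within cluster 2 (2855 cells) they were 0.54 for MAGI2, 0.46 for LSAMP, 0.31 for IL1RAPL1 and 0.20 for NEGR1. For reference, the median rho with MALAT1 was 0.02 over 10927 genes and 0.21 over the 173 other long genes, beside 0.29 over the 6 measured members. In the TGFB1 library (9330 cells) the same medians were 0.02, 0.17 and 0.23. The members were chosen on cluster 1, whose MALAT1 share was larger than that of cluster 2. Their untreated median is therefore not independent of that choice, and the reference genes were not matched to them in level.

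The summed UMIs of the 7 genes, most of which come from LSAMP and MAGI2, followed the other long genes more closely than MALAT1. In untreated cells rho was 0.75 with the summed other genes spanning 500 kb or more and 0.58 with MALAT1. Within cluster 1 the same values were 0.49 and 0.10, and within cluster 2 they were 0.69 and 0.64. In TGFB1 cells they were 0.68 and 0.45. Whether intron-rich nuclear RNA accounts for the height of these genes in cluster 1 was not tested, since MALAT1 share, long-gene share and cluster moved together.

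Between the libraries, cells were also matched on MALAT1. All cells of both libraries were put in 5 bins of MALAT1 share and compared within each. LSAMP was lower with TGFB1 in each bin, at ratios from 0.41 to 0.66, and MAGI2 from 0.35 to 0.52. IL1RAPL1 had ratios from 0.23 to 0.47 and SNTG1 from 0.029 to 0.051. NTM was higher in each bin at 2.02 to 2.35, and NEGR1 at 1.58 to 2.24. The library ratios of these 6 genes thus kept their direction at matched MALAT1 share. Matching on MALAT1 did not match cluster, and cluster 1, on which the genes were chosen, was 45.5% of untreated and 0.446% of TGFB1 cells. Ratios below 1 in these bins are therefore not independent of that choice, and their cause was not tested. Over all cells MALAT1 itself stood at 18789 CPM untreated and 16896 CPM with TGFB1.

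**Figure D4:**
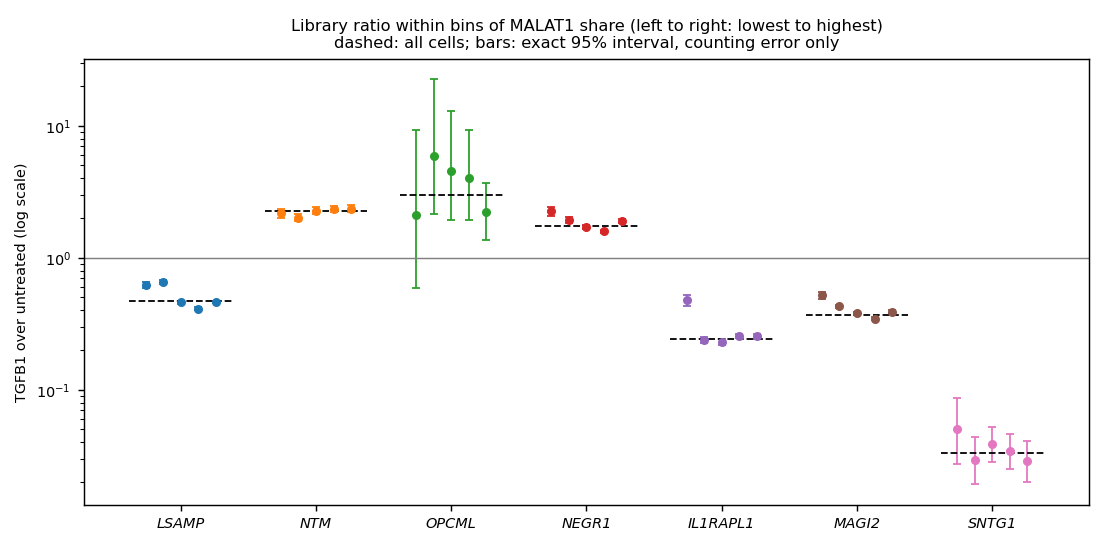
Ratio of TGFB1 to untreated CPM (log axis) within 5 bins of MALAT1 share, from the lowest to the highest bin left to right for each gene, with exact 95% intervals; dashed lines are the ratios over all cells. LSAMP, IL1RAPL1, MAGI2 and SNTG1 lie below 1 and NTM and NEGR1 above 1 in all 5 bins, and the OPCML interval includes 1 in the lowest bin.

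The genes fell into groups by profile over the 14 groups of library and cluster, which share libraries and differ in depth. The 14 include untreated cluster 1, on which the genes were chosen, so r between genes high there partly restates that choice. Pearson's r of log2(CPM + 1) was 0.90 between IL1RAPL1 and SNTG1, 0.87 between LSAMP and IL1RAPL1 and 0.81 between LSAMP and MAGI2. NTM and NEGR1 had r = 0.72, and LSAMP and NTM r = -0.34. Across the 3574 thinned cells of untreated cluster 1, Spearman's rho of a member with the summed other members was 0.24 for MAGI2, 0.23 for IL1RAPL1 and 0.22 for LSAMP, and between 0.03 and 0.06 for the others. Among genes at 20 CPM or more, those most like the mean profile of the members were ADCY9 (r = 0.98), NUBPL (0.965), MTHFD1L and EHBP1 (0.96), GIT2 and ZYG11B (0.95), PRR16 (0.94), APTX and UTRN (0.93) and KAT6B (0.92). That mean joins profiles that run apart, such as those of NTM and SNTG1 (r = -0.63). Each r with a like gene, here and below, is a top value picked from all these genes over 14 groups. For LSAMP the nearest were LINC03051, BOC and APPL2 (0.92 to 0.91). For IL1RAPL1 they were CACNB2 (0.95), FBN2 (0.94) and CNTNAP3B (0.93), for MAGI2 TMTC2, BICC1 and FYN (all 0.97), and for SNTG1 TWIST2, FGF13 and PARP14 (all 0.97). FGF13 stood at 54.9 CPM untreated and 1.67 CPM with TGFB1, a log2 ratio of -5.03 beside -4.93 for SNTG1. For NEGR1 the nearest were ATXN1 (0.98), PPP3CC (0.96) and RASAL2 (0.95), for NTM MYO9B, VKORC1L1 and NHSL1 (0.95 to 0.94), and for OPCML PURA, OXTR and COL4A2 (0.90 to 0.88).

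Related genes are counted here by the same 1.5-fold, which 8.45% of all genes passed upward and 14.2% downward. The remaining IgLON gene, IGLON5, did not reach 5 CPM. Among the IL1RAPL-type genes and their receptor phosphatases, without IL1RAPL1 itself, 1 of 5 measured genes was higher with TGFB1 and 1 lower. These were the receptor phosphatase PTPRF (7.03 to 13.8 CPM, untreated to TGFB1) and the interleukin 1 receptor IL1R1 (218 to 90.7 CPM). PTPRD, the partner of IL1RAPL1, stood at 6.72 and 5.90 CPM. Among the other MAGI and DLG scaffolds, 1 of 7 was higher and 1 lower, with a median log2 ratio of -0.03. MAGI1, a relative of MAGI2, was the higher at 557 CPM against 283 CPM, opposite to MAGI2, and DLG2 was the lower at 20.8 against 40.7 CPM.

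In the syntrophin and dystrophin complex, without SNTG1, 1 of 11 measured genes was higher with TGFB1 and 3 were lower, with a median log2 ratio of -0.08. The dystrobrevin DTNA, which binds syntrophins, stood at 14.7 CPM untreated and 3.74 CPM with TGFB1, DTNB at 15.1 and 9.58 CPM, and the sarcoglycan SGCE at 76.4 and 45.6 CPM. The sarcoglycan SGCD was higher, at 155 against 75.3 CPM. The broadly expressed syntrophins SNTB1 and SNTB2 stood at 33.4 and 90.9 CPM untreated and at 40.0 and 98.6 CPM with TGFB1. Both of these differed between the libraries by less than 1.5-fold.

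Of 38 other synaptic adhesion genes, 8 were measured, 4 higher and 1 lower with TGFB1. The teneurins TENM3 (165 to 339 CPM) and TENM4 (31.1 to 70.3 CPM), which bind latrophilins across synapses, were higher, as were MDGA1 (10.6 to 17.3 CPM) and the neurexin NRXN3 (4.97 to 7.72 CPM). The neuroligin NLGN1 was lower (14.5 to 9.23 CPM). Of 22 other immunoglobulin-type neural adhesion genes, 7 were measured, with KIRREL3 higher (108 to 194 CPM) and NCAM2 lower (50.2 to 9.80 CPM). Median log2 ratios of the 2 lists were 0.35 and -0.15. Among 6 nuclear-retained long non-coding RNAs, 0 were higher and 0 lower by 1.5-fold, with a median of 0.29.

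Markers of other cell types were read beside the members. Of 11 neuronal markers, 4 reached 5 CPM, and 2 of them, the neurofilaments NEFL (23.0 to 3.13 CPM) and NEFM (15.3 to 4.02 CPM), were lower with TGFB1. SYT1 stood at 178 and 150 CPM and STMN2 at 83.6 and 57.1 CPM, and RBFOX3, SNAP25, ELAVL3 and ELAVL4 were under 5 CPM. The list summed to 308 CPM untreated and 218 CPM with TGFB1, and over groups from 122 CPM in untreated cluster 7 to 979 CPM in untreated cluster 9. Of 9 Schwann and glial markers only MBP reached 5 CPM, with a log2 ratio of TGFB1 to untreated of -1.58, and the list summed to 30.8 and 10.7 CPM. All 6 cycling markers were lower with TGFB1, summing to 193 and 65.2 CPM. The part of these markers in the results was not tested.

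Overlapping genes limit some values, and some members are partly alike in sequence. Within the MAGI2 span, MAGI2-AS3 lies on the other strand and stood at 102 CPM untreated and 54.2 CPM with TGFB1, and within LSAMP, LSAMP-AS1 stood at 3.37 and 1.44 CPM. No source used here states the strand setting of the counting, so reads of such pairs cannot be told apart. Among the 7 genes only NTM and OPCML shared stretches of 31 bases in their annotated transcripts (171 such stretches), with 76.3% identity of their longest coding sequences. The other IgLON pairs had 61.5% to 68.0% identity and shared none.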

How the data were processed

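The authors deposited a matrix of unnormalized UMI counts for 20656 cells of both libraries, and the cell table deposited by the authors adds the percent of mitochondrial UMIs, the library and the cluster at resolution 0.4. Cell Ranger 9.0.1, Seurat and GRCh38 are named in the submitters' processing notes, with no roles; whether introns were counted is not stated there. Sums over each cell's counts matched the table in 20656 cells. The members, the related lists, the markers and the comparisons were chosen with earlier results of these data known.

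UMIs were summed over cells and divided by their total to give CPM. Ratios carry exact conditional binomial intervals, sums exact Poisson and shares exact binomial (Clopper-Pearson) intervals, all at 95% and for counting error only. A count of 0 allows 3 UMIs, or 0.0178 CPM untreated and 0.0144 CPM with TGFB1. Genes counted as measured from 5 CPM in either group compared and as higher or lower from 1.5-fold; groups needed 50 cells. With 1 library a group, no p-value was computed. Cells were thinned to 7500 UMIs for shares and correlations. No doublet caller was run and all deposited cells were kept. Spans are from GENCODE 29, found for 32268 genes, and promoters from RefSeq. Named were all 7 members, each list's genes past 1.5-fold, the 10 genes most like the members' mean and the 3 most like each member; other genes were named as family relatives or markers, after their values were seen. Untreated cells were clustered again with scanpy 1.11.5 (Leiden at resolution 0.4 on 30 components of 2000 variable genes, with 15 neighbours). Alternatives were other scalings, minima, folds, cell sets and MALAT1 bins. The calculations were tested on simulated data. edgeR 4.0.16 (R 4.3.3) gave TMM factors only; the rest used Python 3.11.15, numpy 2.4.6, pandas 2.3.3, scipy 1.17.1 and matplotlib 3.10.9.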

Additional observations from a re-analysis of the deposited data

How the results depend on the processing

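With 1 library a group, no replicate could be left out. No paired analysis was possible because each group is 1 library. The count of members lower with TGFB1, 4 as reported, was 3 without clusters 1 and 2 and 4 under the 14 other alternatives. The 2 members higher became 1 without clusters 1 and 2, 1 relative to other genes spanning 500 kb or more and 1 at a fold of 2. The median log2 ratio of -1.27 became -1.12 under TMM and -1.08 under median-of-ratios scaling, which move every ratio by 0.15 and 0.19. It was -1.24 with equal weight per cell, -1.31 without clusters 7, 9 and 10, -1.34 without cells holding an MKI67 or TOP2A UMI, -0.47 without clusters 1 and 2, -1.48 relative to long genes, -1.12 relative to MALAT1 and -1.21 with equal weight for 5 bins of MALAT1 share. The 5 members higher in cluster 1 became 4 relative to long genes, relative to MALAT1 and when clustered without the members, NEGR1 being lost each time, and 3 when also clustered without genes spanning 100 kb or more, MALAT1 and NEAT1. In that last clustering LSAMP stood at 621 CPM in the new cluster compared and 455 CPM in the rest. The rest included another new cluster of 1536 cells, 83.1% of them from cluster 1, with LSAMP at 904 CPM. NEGR1 stood at 137 CPM there and 131 CPM in the new cluster compared. Without the members only, NEGR1 stood at 147 CPM in a new cluster of 59.1% cluster 1 cells and 124 CPM in that compared. The lower counts on clustering again therefore do not show that LSAMP or NEGR1 was low in cluster 1 cells. OPCML turned to -0.0233 (TGFB1 over untreated, log2) without clusters 1 and 2, and to 0.25 for cluster 1 against cluster 2 alone. NTM in cluster 1, at -0.09, turned to 0.0822 with equal weight per cell, 0.0416 after thinning, 0.58 against cluster 2 alone and 0.32 without cycling cells. The cause of these moves was not tested. Leaving out clusters 1 and 2, the count of members higher with TGFB1 and the clustering without long genes were chosen after seeing the data. Depth limits OPCML in both libraries and SNTG1 with TGFB1.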
